A study of Bos taurus with 90 samples.

Results

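Among the genes expressed in the liver of these steers, 118 were split between libraries. Some libraries held a clear amount of the transcript, and others of the same breed and diet held several times less or none. Levels are given as CPM, the count of a gene scaled to a library total of 1e6. The members were chosen on the measured counts, by a rule that used no animal number. A gene first had to reach 10 counts in at least 10 of the 90 libraries, which 13720 of 24616 did. Its level, log2 of CPM plus 0.5, was then set against the mean of its breed and diet phase. Genes were kept whose residuals had a standard deviation (SD) above 1 and a kurtosis below 3. A kurtosis well below 3 marks residuals that sit in 2 clumps or a broad plateau instead of a peak with a few outliers. Just below 3 the residuals can also form a single peak. Of the 210 genes past the SD limit, the kurtosis limit left 118. Only 13 of these could be named, and the rest are given by the Ensembl identifier used in the counts.

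The libraries came from liver punch biopsies of Charolais (CH) and Holstein-Friesian (HF) steers, 43 and 47 in number, from 36 and 38 steers. Each steer has libraries from the end of 1 or more of 3 feeding phases. These were a high-concentrate diet in the growing phase (H1), zero-grazed grass (ZG) and the same high-concentrate diet in the finishing phase (H2). Within breed and phase the animals were labelled high or low for residual feed intake (RFI), the feed eaten beyond what size and growth predict. Per the paper, all animals were biopsied after each phase, and libraries came from those most extreme in RFI. A steer with libraries from more than 1 phase was therefore extreme in RFI in each. CH gave 11 high and 9 low RFI libraries in H1, 3 and 3 in ZG, and 8 and 9 in H2, and HF gave 9 and 7, 8 and 10, and 8 and 5. All steers ate the zero-grazed grass between the 2 concentrate phases, so phase, age and diet cannot be told apart. The biopsies hold every cell type of the liver, and in such bulk samples fewer cells of a type and less RNA per cell cannot be told apart. The hepatocyte transcripts FGA, for fibrinogen alpha chain, and APOC3, for an apolipoprotein, were present in all 90 libraries, at 6806 to 31132 and 577 to 3019 CPM. No defining marker of leukocytes, blood, muscle or skin had a name here, so a part of other cells in these values was not tested.

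Liver mRNA is made mostly by hepatocytes, the cells that secrete the plasma proteins and run intermediary metabolism, with smaller shares from endothelial cells, bile duct cells and resident immune cells. A transcript level measured once in an animal can be a lasting property of that animal or can differ between samplings, and only repeated sampling separates these. Whether a difference between samplings lies in the animal or in the cells each biopsy took was not tested. The named members come from unlike pathways. GIMAP4 and GIMAP8 belong to the GTPases of immunity-associated proteins, a family encoded in a cluster of neighbouring genes and best known from lymphocytes. HP encodes haptoglobin, a plasma protein that binds free haemoglobin and is a major acute phase protein of cattle. MIF is a cytokine, CCL14 a chemokine, TGM2 a transglutaminase that cross-links proteins, UHRF1 a factor that maintains DNA methylation, NOCT a protein with a circadian rhythm, FBP2 a fructose-bisphosphatase, ASPG an asparaginase and CARMIL3 a regulator of actin filament capping. LOC768255 and LOC782233 are loci without a given name.

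Steer numbers recur in the labels, and 14 steers within a breed have libraries from different phases, 6 CH and 8 HF. They give 30 libraries and 18 pairs of libraries across phases. Of these steers, 6 were in different RFI groups at their samplings. Before the results, the labels were set against the 80 members that did not move together in one group described further on. In 27 of the 30 libraries the closest of all other libraries was one with the same number. The number 1797 stands on a CH library in H1 and an HF library in H2, which correlated at -0.03 over the 80 genes. The 2 libraries of HF steer 5612 correlated at 0.23, whereas its H2 library was closest to that of steer 5609 (r = 0.70). The H1 library of CH steer 1100 was closest to that of HF steer 5624 (r = 0.69, against 0.61 with its own H2 library). The H1 library of 5613 and the ZG library of 1834 were closest to each other at 0.82, and the H1 libraries of 1078 and 447 at 0.83. These 11 libraries are called in doubt below, and counts are also given without them. Total counts ran from 9097695 to 63621304 (median 18858293).

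**Figure D1:**
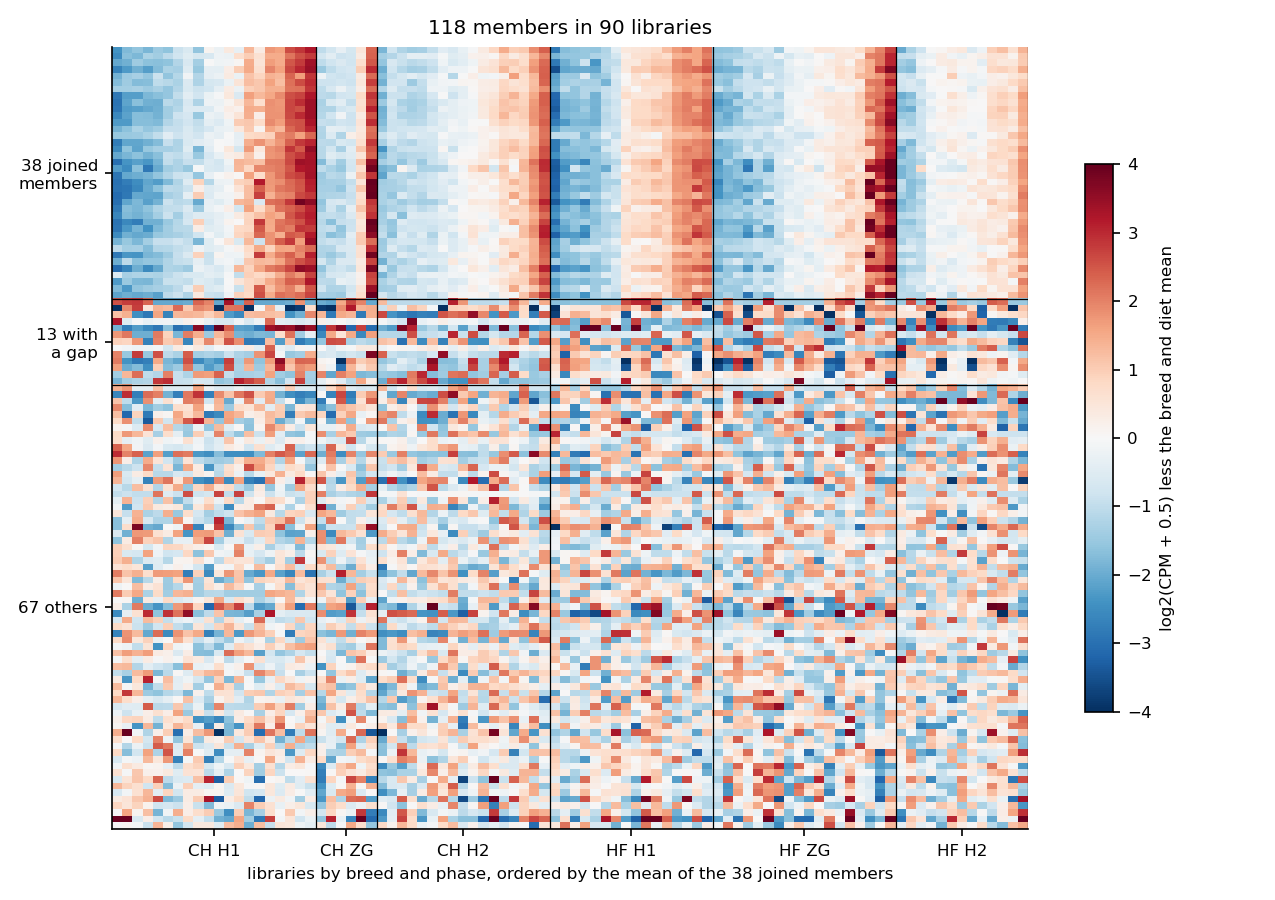
Residuals of the 118 members (rows) in the 90 libraries (columns, by breed and phase), in log2(CPM + 0.5) from the mean of breed and diet, with colours ending at 4 and -4. The 38 members that moved together form a block that changes from library to library as one, and the other 80 members form separate patterns.

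Off described only some members. With each gene's levels, log2 of CPM plus 0.5 over all 90 libraries and not adjusted for breed or phase, divided at the boundary that best separates 2 classes, the libraries above it had a median of 2.04 to 1514 CPM depending on the gene, and the ratio of the medians above and below, on the CPM plus 0.5 scale, was 2.6 to 74.5 with a median of 5.74. In 26 of the 118 members the lower libraries had a median under 0.5 CPM, and in the other 92 they still held transcript. Between 16 and 73 of the 90 libraries were in the higher class. The limits cut through a continuum: FBP2, with an SD of 1.01 and a kurtosis of 2.98, was just inside both, while ENSBTAG00000007302, with an SD of 0.994, and ENSBTAG00000008571, with a kurtosis of 3.02, were just outside.

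In 13 members the range of levels held an empty interval of at least 1 log2 unit, with 5 or more libraries on each side. In 11 of them this interval parted the classes, and in ENSBTAG00000006383 and ENSBTAG00000011985 it lay just below the boundary, with 1 library of the lower class above it, at 1.71 and 1.06 CPM. Of all genes tested 30 had such an interval, or 0.219%, and the rule itself favours it, so the count is a description. ENSBTAG00000002705 had the widest interval, 3.26 log2 units: 28 libraries held 24.1 CPM or more (median 68.7) and 62 held at most 2.06 CPM (median 0.429). ENSBTAG00000009656 was the reverse in frequency, with 71 libraries at 8.07 CPM or more (median 38.1) and 19 at 0.905 CPM or less (median 0.088). ENSBTAG00000021565 had 36 libraries at 1.67 CPM or more (median 7.85) and 54 at 0.088 CPM or less, with a median of 0. In these 3 genes no library lay in between, and the median of the lower class was under 0.5 CPM.

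The same held at lower depth for ENSBTAG00000047547, with medians of 8.78 and 0.057 CPM in 49 and 41 libraries, and for ENSBTAG00000047008, with 6.04 and 0.11 CPM in 59 and 31. ENSBTAG00000011985 had 5.09 and 0.061 CPM in 33 and 57 libraries, and ENSBTAG00000006383 had 11.3 and 0.175 CPM in 27 and 63. The lower classes of the next 4 genes had somewhat higher medians, like that of ENSBTAG00000002705. ENSBTAG00000039555 had medians of 17.1 and 0.399 CPM in 65 and 25 libraries, and ENSBTAG00000006963 had 14.9 and 0.600 CPM in 57 and 33. ENSBTAG00000001851 had 11.1 and 0.468 CPM in 19 and 71 libraries, and ENSBTAG00000009583 had 16.4 and 0.410 CPM in 17 and 73.

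In the GIMAP genes the lower class was low and not off. GIMAP4 had a median of 153 CPM in 58 libraries, all at 54.1 CPM or more, and of 8.30 CPM in the other 32, all at 19.9 CPM or less. LOC768255 was high in the same 58 libraries, at 43.9 CPM or more (median 108), and at 6.96 CPM or less in the other 32 (median 3.44). The residuals of these 2 genes correlated at 0.99 over the 90 libraries, which share tissue, depth and preparation. In the ARS-UCD2.0 gene order 6 other genes lie between them. Whether reads of either gene were counted to the other was not tested, so the 2 levels are not taken as independent. GIMAP8, with 7 genes between it and GIMAP4, correlated with GIMAP4 at 0.62 and with LOC768255 at 0.64. It had a median of 161 CPM in only 16 libraries and 18.7 CPM in the rest, with no empty interval.

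**Figure D2:**
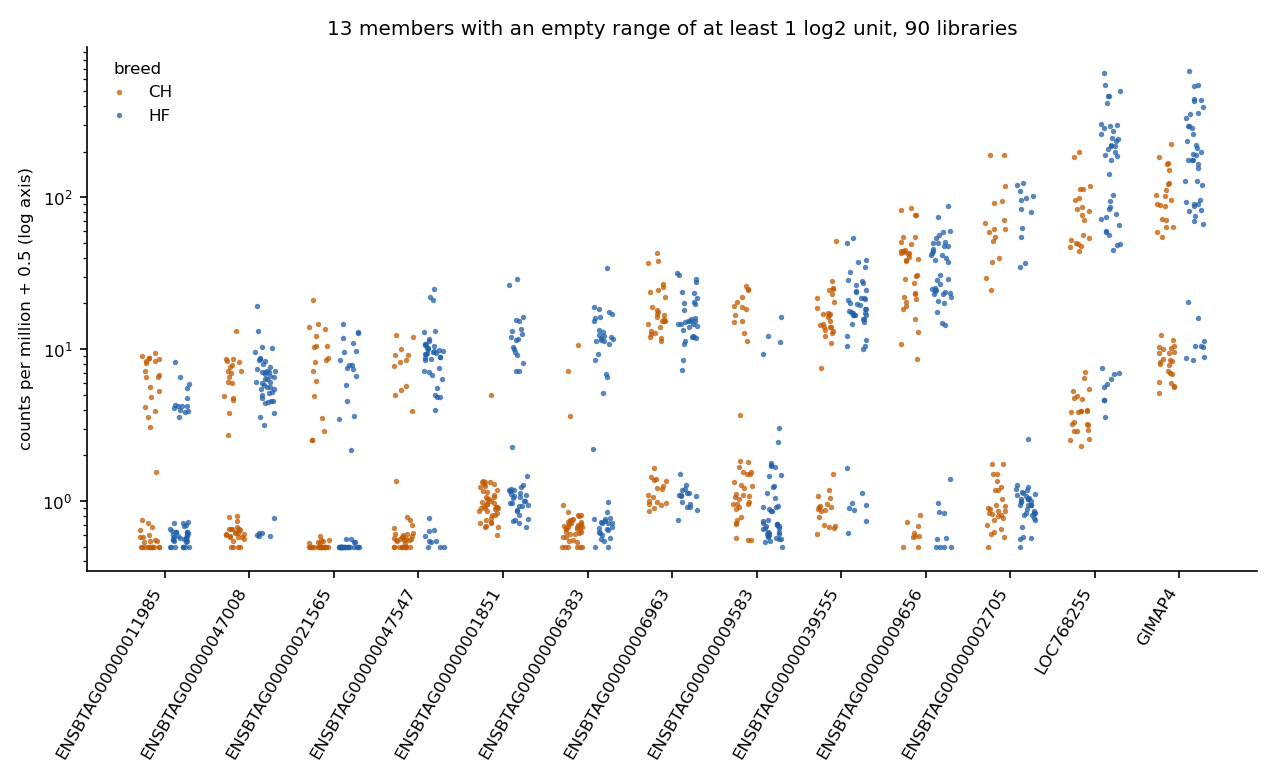
Levels of the 13 members with an empty interval in each of the 90 libraries, as CPM + 0.5 on a log axis, with CH and HF in different colours. Each gene shows an upper and a lower band, with nothing between them in 11 genes and 1 library between them in ENSBTAG00000006383 and ENSBTAG00000011985, for example 24.1 CPM or more against 2.06 CPM or less for ENSBTAG00000002705.

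Repeated steers kept their class in most members outside the group of 38. Over the 18 pairs of libraries of the same steer, the correlation of a member's residuals had a median of 0.74 over the 80 genes and was above 0.5 in 63 of them, whereas the median over all 13720 tested genes was 0.12 and 8.02% were above 0.5. The 30 tested genes with an empty interval, which include the 13 members with one, had a median of 0.675, with 66.7% above 0.5. The members were in the same class at both samplings in a median of 16 of 18 pairs, or 88.9% of pairs over the 80 genes, against 53.1% in pairs of different steers. Taken pair by pair, the residuals over the 80 genes correlated at 0.23 to 0.88 within a steer (median 0.713) and at -0.45 to 0.82 (median -0.01) in 1274 pairs of different steers of the same breed in different phases. These correlations are descriptions, since genes of one library share its depth and preparation and several pairs share a steer.

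ENSBTAG00000002705 shows this best. Steer 307 held 70.0, 93.6 and 37.1 CPM in H1, ZG and H2, steer 1831 held 60.9 and 54.5 CPM in H1 and ZG, and steer 1100 held 58.4 and 91.8 CPM in H1 and H2. Steer 5612 had 0.44 CPM in ZG and 95.8 CPM in H2, and the remaining 10 steers stayed at 1.25 CPM or less throughout. The class of 13 of the 14 steers was the same on every diet sampled. The exception has libraries in doubt, but these were picked by their likeness over the 80 genes, this one included, so the doubt is not evidence of its own.

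The reverse pattern was equally steady. ENSBTAG00000009656 was at 0 and 0 CPM in steer 1831, at 0.48 and 0 in steer 2069 and at 0 and 0.90 in steer 2101, while the other 11 steers held 14.3 to 87 CPM at every sampling. ENSBTAG00000006963 was low in steer 1639 (0.49 and 0.25 CPM) and steer 1816 (0.56 and 0.60 CPM) and between 10.9 and 37.4 CPM in the other 12. ENSBTAG00000021565 was high at every sampling in 5 steers, at 9.97, 5.69 and 2.02 CPM in steer 307 and 12.6, 4.06 and 6.15 CPM in steer 5632, and at most 0.06 CPM in the other 9. The class did not change in these genes, and the level within the higher class still moved between phases.

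Over the 13 genes, 4 held both classes with no steer that changed, and ENSBTAG00000009583 was low in all 14 steers. In each of the other 8 genes 1 of 14 steers changed, and it was 5612 or 1100 each time. In steer 1100, ENSBTAG00000001851 was at 4.49 CPM in H1 and 0.25 CPM in H2, ENSBTAG00000006383 at 3.14 and 0.20 CPM, and ENSBTAG00000047008 at 4.12 and 0.15 CPM. Both steers have libraries in doubt, which follows in part from how those libraries were picked.

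**Figure D3:**
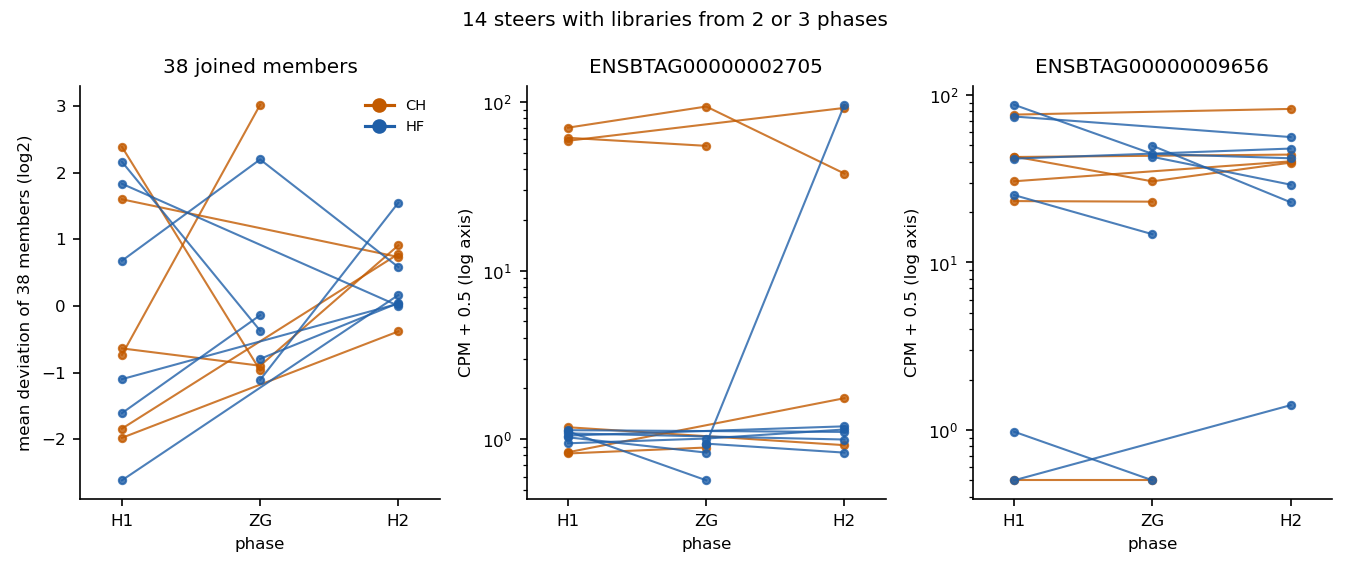
The 30 libraries of the 14 repeatedly sampled steers by phase, with lines joining the libraries of a steer and colours for breed: the mean residual of the 38 members that moved together (log2), and the levels of ENSBTAG00000002705 and ENSBTAG00000009656 (CPM + 0.5, log axis). Lines cross freely in the first panel, stay in the upper or lower band in the second except for steer 5612 (0.44 and 95.8 CPM), and all stay in their band in the last.

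The differences between repeated steers were tested with limma, as a moderated F test of 12 contrasts between steers within breed with 12 residual degrees of freedom, breed and phase being in the model. The rule read the same libraries but no steer number. At an adjusted p under 0.05 the test called 62 of the 118 members, against 3.2% of all tested genes. The rule chose genes with a wide spread between libraries, and differences between steers are part of it, so the higher share is a description. The test called 12 of the 13 genes with an empty interval, none of the 38 that moved together, and 50 of the remaining 67. Without the libraries in doubt it called 63, against 2.74% of all genes. All alternatives gave 53 to 65, against 2.07% to 3.41%. The smallest adjusted p-values (limma) were 7.35e-09 for ENSBTAG00000006963, 1.76e-08 for ENSBTAG00000001582, 3.13e-08 for ENSBTAG00000009656, 6.38e-08 for ENSBTAG00000021565 and 1.38e-07 for ENSBTAG00000044111.

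ENSBTAG00000044111 kept its class in all 18 pairs at low levels, with medians of 2.52 CPM in 33 libraries and 0 in 57. Steer 2220 held 4.23 and 6.68 CPM in H1 and H2, steer 364 held 1.93 and 2.06 CPM, and steer 2071 held 0 and 0.0531 CPM. ENSBTAG00000040367 also kept its class in all 18 pairs, and steers 1816 (5.36 and 8.13 CPM) and 5612 (5.70 and 2.34 CPM) were its only high animals, all other libraries of repeated steers holding 0.266 CPM or less. ENSBTAG00000021407 separated steers as widely: steer 307 held 23.8, 21.8 and 10.4 CPM and steer 364 held 25.1 and 24.4 CPM, whereas steer 1320 held 0 and 0. ENSBTAG00000001582 was graded, from 153 and 100.5 CPM in steer 1639 (H2 and ZG) to 0.735 and 1.21 CPM in steer 2101. Animals in between, such as steer 1831 at 7.18 and 6.70 CPM, also stayed near their own level.

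The most abundant steady member was ENSBTAG00000048094, with medians of 1074 and 42.0 CPM in 43 and 47 libraries (limma adjusted p = 3.28e-05). Steer 2071 held 3885 and 1402 CPM in H1 and H2, steer 2101 held 1532 and 1034 CPM, and steer 307 held 42.6, 37.8 and 35.6 CPM in H1, ZG and H2. The class was kept in 16 of 18 pairs, and steer 5612, at 152.7 and 746.3 CPM, was one of those that changed.

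Among the named members GIMAP8 differed most between repeated steers (limma adjusted p = 1.16e-05). Only steers 2101 and 5632 held high amounts, at 95.0 and 165 CPM in H1 and H2, and at 89.3, 134 and 127 CPM in H1, ZG and H2, while the other 12 steers held 13.1 to 48.4 CPM. All 18 pairs kept the class. CARMIL3 (limma adjusted p = 8.88e-05) kept it in 17 pairs: steer 307 held 10.7, 13.8 and 11.6 CPM and steer 2065 10.0 and 6.47 CPM, whereas steer 1831 held 0.476 and 0.418 CPM and steer 1639 0.220 and 0.249 CPM. The pair that changed was that of 5612, at 0.536 and 3.75 CPM.

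LOC782233 (limma adjusted p = 1.22e-04) was on in steer 364 (4.87 and 5.92 CPM) and steer 2101 (7.41 and 5.25 CPM) and at 0.12 CPM or less at both samplings of steers 1816 and 1831. Of its 18 pairs 16 kept the class, and those that changed were of steer 2069, at 0.747 and 3.48 CPM in H1 and ZG, and steer 5612, at 2.87 and 0.123 CPM in ZG and H2. CCL14 (limma adjusted p = 1.22e-04) was lowest in steer 1639, at 1.59 and 0.829 CPM, and steer 2071, at 1.54 and 2.29 CPM, and was highest in steer 1831, at 23.8 and 24.5 CPM. TGM2 (limma adjusted p = 2.42e-04) was high at each sampling in some steers and low in others: steer 5632 held 219, 90.6 and 61.8 CPM, steer 1320 held 146 and 73.3 CPM, and steer 1816 held 20.9 and 20.5 CPM. Its class was kept in 13 of 18 pairs, and steer 307 went from 112 to 33.6 CPM between H1 and H2. Neither the chemokine nor the transglutaminase had an empty interval.

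LOC768255, GIMAP4, FBP2 and NOCT also passed, with limma adjusted p-values of 3.02e-03, 0.0134, 0.0203 and 0.0286. NOCT nevertheless kept its class in only 8 of 18 pairs (r = 0.29), or 44.4%, against 48.7% in pairs of different steers. UHRF1, MIF, ASPG and HP did not, at 0.0881, 0.230, 0.393 and 0.630 with limma. HP, with medians of 1514 CPM in 28 libraries and 76.9 CPM in 62, moved by large amounts within the same animal. Steer 5632 held 9973 CPM in H1 and 21.5 and 210 CPM in ZG and H2, steer 364 held 3119 and 97.1 CPM in H1 and H2, and steer 1639 held 119 and 6545 CPM in ZG and H2. HP kept its class in 8 of 18 pairs (r = -0.09), as did ENSBTAG00000022394 in 9 of 18 (r = -0.01), whose residuals correlated with those of HP at 0.82 over the 90 libraries. A further correlated couple, ENSBTAG00000038067 and ENSBTAG00000001595 (r = 0.95), had steer-pair correlations of 0.09 and 0.17.

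**Figure D4:**
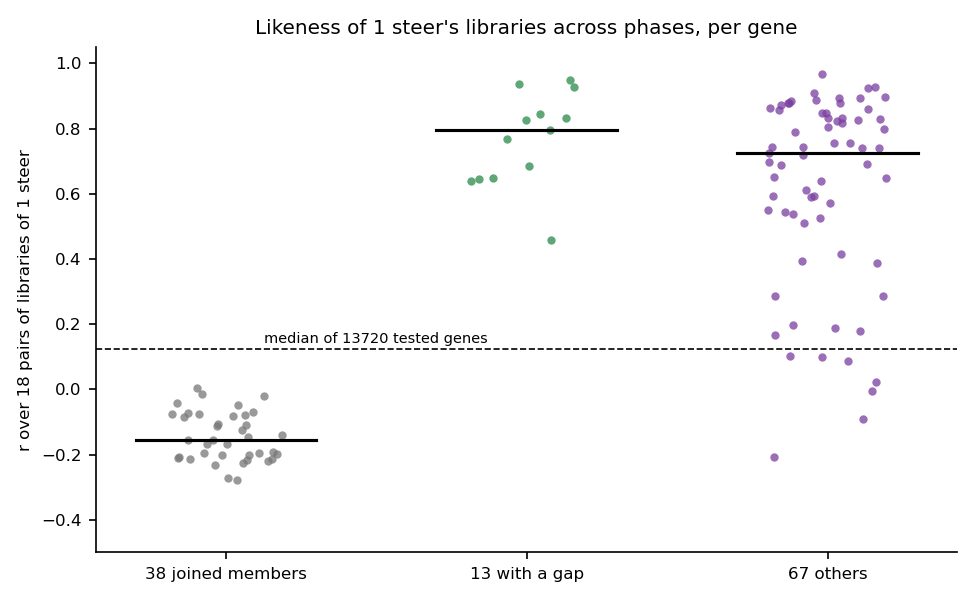
Correlation of residuals over the 18 pairs of libraries of the same steer, 1 dot per gene, for the 38 members that moved together, the 13 with an empty interval and the other 67, with the median of each as a black bar and the median of all 13720 tested genes, 0.12, as a dashed line. The 38 lie between -0.28 and 0.00, and most of the others lie above 0.5.

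The 38 members that moved together formed the opposite case. They were joined by correlations of at least 0.9 to another member and correlated with each other at 0.80 to 0.99 (median 0.94), and none had a name or an empty interval. The group does not end at the rule: 148 tested genes correlated with its mean at over 0.8, of which 110 are no members, and ASB2, a named one, reached 0.87. The summed level of the 38 ran from 127 to 7226 CPM in CH H1 (median 597), 207 to 4540 in CH ZG (289) and 145 to 2818 in CH H2 (405). In HF it ran from 107 to 4228 CPM in H1 (median 1313), 137 to 6712 in ZG (514) and 129 to 1246 in H2 (414). These ranges overlap throughout, and the higher end in H2 was below that in the other phases of either breed.

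All 38 were in the higher class in 17 of 90 libraries, none in 48 and some in 25. By phase, the libraries with all 38 high numbered 12 of 36 in H1, 3 of 24 in ZG and 2 of 30 in H2. In repeated steers the group changed freely. Its sum went from 457 to 4540 CPM between H1 and ZG in steer 1816, and from 4370 to 248 CPM between the same phases in steer 1831. The correlation over the 18 pairs was -0.28 to 0.00 over the 38 genes (median -0.15), and the limma test of steers called 0 of 38, with 0 also at an unadjusted p under 0.05 and adjusted p-values of 0.41 to 0.85. The mean of the group correlated at -0.20 with log2 of the total count and at -0.09 with the number of genes detected over the 90 libraries. The number of the other 80 members in the higher class correlated at 0.25 and 0.53 with these. The part of depth and of the number of genes detected in the results was not tested.

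The breeds were compared over the 3 phases with the edgeR quasi-likelihood test, breed and phase being in the model. It called 13 of the 118 members, 3 higher in CH and 10 lower, against 3.31% of all tested genes (1.3% higher in CH and 2.01% lower). Of these 13, 6 had an empty interval, 7 were among the other 67 and none was among the 38, where 1 passed an unadjusted p under 0.05. The median log2 difference, CH less HF, was 0.08 over the members and 0.01 over all genes.

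ENSBTAG00000004459 had the strongest evidence for a difference between breeds. It ranged from 0.878 to 44.4 CPM in CH (median 19.5) and from 0.660 to 26.2 CPM in HF (median 1.54), so the ranges overlapped, with 26 of 43 CH and 3 of 47 HF libraries in the higher class and the highest HF value in the ZG library of steer 5612, which is in doubt. The log2 difference was 2.57 ± 0.36 (SE, edgeR adjusted p = 6.08e-07). ENSBTAG00000009583 was also higher in CH, by 2.16 ± 0.53 (edgeR adjusted p = 8.00e-03), and ENSBTAG00000009846, at medians of 4.24 and 2.84 CPM, was higher by 0.91 ± 0.27 (edgeR adjusted p = 0.0414). This test treats the libraries of a steer as independent. With steer as a block in limma-voom 11 members were called, and neither ENSBTAG00000009583 nor ENSBTAG00000009846 was among them, nor were ENSBTAG00000035064 and ENSBTAG00000011952 named further on. In the other direction ENSBTAG00000001851 differed by -3.22 ± 0.48 (edgeR adjusted p = 3.48e-06) and ENSBTAG00000006383 by -3.70 ± 0.65 (edgeR adjusted p = 1.09e-04). For ENSBTAG00000001851 the only CH library in the higher class was that of steer 1100 in H1, which is in doubt.

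The 3 members named in the GIMAP region were lower in CH, of which GIMAP4 and LOC768255 are not taken as independent. The genes that lie between them were not identified here. GIMAP8 ranged from 7.29 to 174 CPM in CH (median 17.6) and from 13.7 to 239 CPM in HF (median 30), a log2 difference of -1.32 ± 0.26 (edgeR adjusted p = 5.07e-04). GIMAP4 differed by -1.67 ± 0.41 (edgeR adjusted p = 8.71e-03) and LOC768255 by -1.94 ± 0.48 (edgeR adjusted p = 9.39e-03). One CH library of 43 was in the higher class of GIMAP8, against 15 HF libraries of 47. The remaining calls were ENSBTAG00000037539, ENSBTAG00000035064, ENSBTAG00000047547, ENSBTAG00000011952 and ENSBTAG00000033367, at -0.92 to -1.82. None of the other 10 named members passed: TGM2, for example, was at 0.51 ± 0.26 (edgeR adjusted p = 0.351), CCL14 at 0.58 ± 0.27 (0.271) and MIF at 0.32 ± 0.28 (0.690).

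Within a phase fewer members passed. In H1 edgeR called 5, against 2.51% of all genes, and 3 without the CH library of 1797, against 2.18%. In H2 it called 6, against 0.415%, among them ENSBTAG00000009583 at 5.52 ± 0.96 (edgeR adjusted p = 3.10e-03) and ENSBTAG00000040367 at -5.02 ± 0.96 (edgeR adjusted p = 8.04e-03). In ZG, with 6 CH libraries, edgeR called 0, against 0.00729%, with 7 at an unadjusted p under 0.05. DESeq2 gave 2 calls in ZG, against 0.0734%. Without the libraries in doubt the edgeR counts were 7, 5 and 1 in H1, H2 and ZG, against 2.58%, 0.262% and 0.0146%. The test of whether the breed difference itself changed with phase called 0 members by edgeR and 0 by DESeq2, against 0.0% of all genes, with 3 at an unadjusted p under 0.05, so the counts by phase are not shown to differ between phases.

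How often the higher class occurred was compared over steers, using the first library of each of 36 CH and 38 HF animals and Fisher's exact test, two-sided, with Benjamini-Hochberg adjustment over all genes. It called 7 members, 2 more frequent in CH and 5 in HF, against 1.06% of all tested genes (0.248% more frequent in CH and 0.816% in HF). ENSBTAG00000004459 was high in 20 of 36 CH steers and 3 of 38 HF steers, or 55.6% and 7.89% (Fisher's exact adjusted p = 0.00741). ENSBTAG00000024272 was high in 31 CH and 15 HF steers (86.1% and 39.5%, Fisher's exact adjusted p = 0.0122). Its level did not pass the breed test in edgeR, at 0.97 ± 0.34 (edgeR adjusted p = 0.0955), but it and ENSBTAG00000047008 were among the 11 members called with steer as a block.

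The other 5 were commoner in HF. ENSBTAG00000047547 was high in 9 CH and 28 HF steers (25% and 73.7%, Fisher's exact adjusted p = 0.0131) and ENSBTAG00000047008 in 14 and 32 (38.9% and 84.2%, Fisher's exact adjusted p = 0.0171). ENSBTAG00000006383 was high in 3 and 19 steers (8.33% and 50.0%, Fisher's exact adjusted p = 0.0172), ENSBTAG00000037539 in 6 and 23 (16.7% and 60.5%, 0.0210) and ENSBTAG00000001851 in 1 and 14 (2.78% and 36.8%, 0.0349). Both classes occurred in both breeds for each of the 7 genes, although the single CH steer for ENSBTAG00000001851 was 1100, whose H1 library is in doubt. GIMAP8, high in 1 and 12 steers, and GIMAP4 and LOC768255, each high in 17 and 30, did not pass (Fisher's exact adjusted p = 0.0919, 0.223 and 0.223).

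Of the members called by level or frequency, 5 were called by both, 8 by level alone and 2 by frequency alone. Of the 13 called by level 10 were also called for repeated steers, and 6 of the 7 called by frequency. All of these lay outside the group of 38, where the test of repeated steers called 62 of 80 members, so the overlap is a description. The frequency calls depended on where the boundary lay: a boundary at 1 CPM for every gene gave 0 calls among members by Fisher's exact test, with 11 at an unadjusted p under 0.05, and 3 among all genes, and a boundary at the widest interval gave 3, for ENSBTAG00000004459, ENSBTAG00000006383 and ENSBTAG00000024272. Without the libraries in doubt 6 were called, against 1.06% of all genes.

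**Figure D5:**
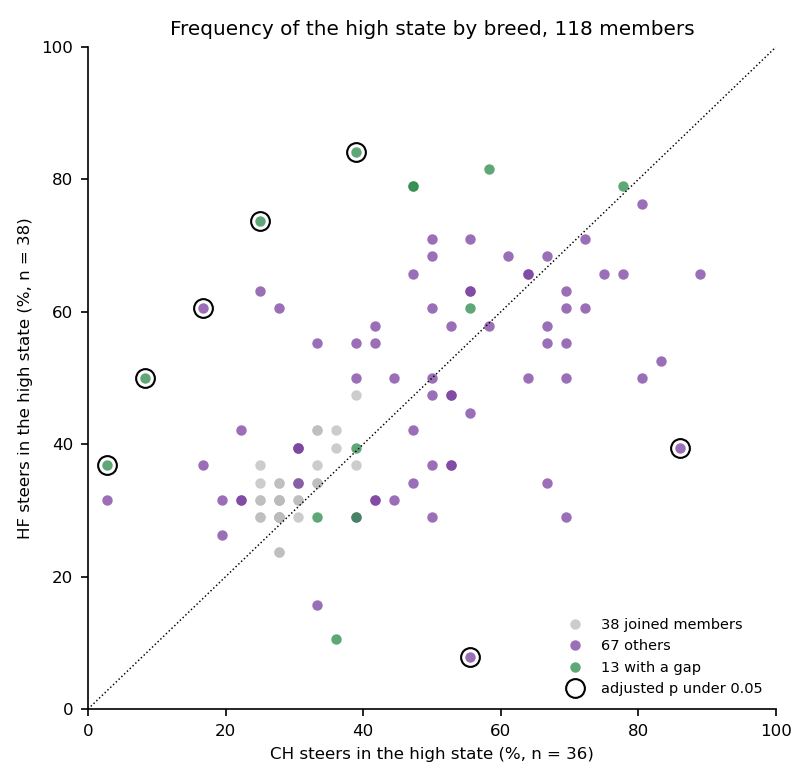
Share of steers in the higher class, in percent, for CH (horizontal axis, 36 steers) and HF (vertical axis, 38 steers), 1 point per member. Most members lie near the diagonal, and the 7 called by Fisher's exact test lie away from it, such as ENSBTAG00000004459 at 55.6% and 7.89%.

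Diet phase was called in a smaller share of members than of all genes. edgeR called 13 of 118 members over the 3 phases in CH, against 57.8% of all tested genes, and 37 in HF, against 59.1%. The rule chose genes with a wide spread within breed and diet, which is the residual of this test, so the lower share is a description. In CH the 13 were all among the 67 genes outside both groups, and none of the 38 that moved together passed edgeR, where 4 passed an unadjusted p under 0.05 and DESeq2 called 6. In HF 20 of those 38 passed, 1 gene with an empty interval and 16 others. The 20 became 35 without the H2 library of steer 1639, 12 without that of 1657, 5617 or 1797, and 13 without that of 1645 or 2101. Without the libraries in doubt the HF count was 11, with 2 of the 38, against 50.1% of all genes. With libraries of a steer treated as correlated in limma-voom it was 14, with 0 of the 38, against 59.5% (16 of 118 at an unadjusted p under 0.05). The HF calls in the group of 38 thus rest on how these libraries are treated.

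H2 against H1 alone gave more calls in the group of 38. edgeR called 11 of the 38 in CH and 29 in HF, all lower in H2, with medians over the 38 of -1.05 and -1.49 on the log2 scale, against 29.7% and 26.7% of all genes called lower in H2. Over all 118 members it called 25 in CH and 43 in HF, against 61.1% and 53.0% of all genes. With steer as a block in limma-voom the calls were 14 and 12, with 0 and 1 of the 38, against 64.3% and 53.4% of all genes. Without the libraries in doubt they were 13 and 12, also with 0 and 1 of the 38, against 57.6% and 36.1%. H2 against ZG gave 0 calls among the 38 in either breed by edgeR, with 1 in CH and 33 in HF at an unadjusted p under 0.05. The medians over the 38 were -0.32 in CH and -1.32 in HF, against -0.02 and -0.03 over all genes. The share of all genes called was not counted for H2 against ZG, so these counts are a description.

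MIF passed the test over the 3 phases in both breeds. MIF held 7.77 to 40.2 CPM in CH H1 (median 22.3), 0.808 to 21.8 in ZG (9.09) and 0.251 to 20.5 in H2 (4.44), and in HF 2.85 to 33.0 (17.6), 0.177 to 34.8 (3.42) and 0.332 to 17.0 (3.28). H1 was highest by median in both breeds, while the ranges overlapped. H2 less H1 was -1.67 ± 0.36 in CH and -1.72 ± 0.54 in HF on the log2 scale (edgeR adjusted p over the 3 phases = 4.90e-04 and 0.0152). MIF correlated over the 90 libraries with ASPG at 0.86 and with ENSBTAG00000020839 and ENSBTAG00000006657 at 0.83 each. Both of the unnamed genes passed in both breeds, at log2 differences of H2 less H1 of -1.73 and -1.99 in CH and -1.76 and -1.64 in HF, whereas ASPG passed edgeR in HF (adjusted p = 0.0477) and not in CH (adjusted p = 0.0524).

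GIMAP8 passed in both breeds too (edgeR adjusted p = 1.43e-04 in CH and 0.0497 in HF), but the CH call came with one ZG library, of steer 437, at 174 CPM beside 13.2 to 26.0 CPM in the other 5. NOCT, low in HF H1 at a median of 5.02 CPM and at 8.32 and 9.77 in ZG and H2, passed in HF (edgeR adjusted p = 0.0306) and not in CH (0.980). TGM2, CCL14, UHRF1, FBP2, CARMIL3, HP and LOC782233 passed in neither breed.

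High and low RFI were compared within each breed and phase with edgeR at an adjusted p under 0.1, the limit of the original design. Over the 6 comparisons it called 0 of 674 results for members, against 0.00262% of all results, which is 0.0155% of genes in CH H1 and 0.0% in the other 5, with 57 results at an unadjusted p under 0.05. DESeq2 gave 14 calls in 13 members, against 0.325% of all results. Those 13 are the members that have names, and the names came from lists of genes picked for RFI on these libraries, so the calls are not independent evidence. Leaving out the CH ZG library of steer 788 gave 1 edgeR call, for ENSBTAG00000039555, one of the genes with an empty interval, in groups of 3 and 2 libraries. Of other fixed lists, the members held 2 of the 2 named GIMAP genes and 2 of 11 uncharacterized loci. They held none of the named hepatocyte, adipocyte, interferon-stimulated, cytochrome P450, UDP-glucuronosyltransferase, glutathione S-transferase or solute carrier genes, of which there were 2, 1, 1, 1, 1, 3 and 5. Of all 328 genes with names 13 are members, and each list holds few named genes, so these counts are a description.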

How the data were processed

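Liver mRNA of 90 steer biopsies was read in 50 bp single-end runs from stranded libraries. Per the submitters' processing notes the tools were CASAVA 1.8, FastQC 0.11.5 and STAR 2.5.3a with the UMD3.1 genome, and reads were counted per Ensembl gene by STAR. The deposited values are raw counts per gene, without normalization, and the strand column used is not given in the sources used here. Replicates are separate steers within a breed and phase, and tests over phases hold some steers more than once. Total counts per library were 9097695 to 63621304 (median 18858293). At this depth 1 CPM is at least 9 counts, and values under 0.1 CPM are a few counts at most.

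Breed and diet were tested with edgeR 4.0.16 (R 4.3.3, TMM factors, quasi-likelihood) over all 13720 genes that passed the filter, with Benjamini-Hochberg adjustment. RFI was tested in the same way, over the 12417 to 13025 genes per breed and phase that passed edgeR's own low-count filter. SE was the absolute log2 fold change over the square root of F. Repeated steers were tested with limma 3.58.1 on the log2(CPM + 0.5) values, and DESeq2 1.42.0 was an alternative. Frequencies, correlations and members were computed with Python 3.11.15, numpy 2.4.6, pandas 2.3.3 and scipy 1.17.1, and plots with matplotlib 3.10.9. The scripts were tested on simulated data. Same-numbered libraries of a breed were taken as one steer from the labels, and their residuals over all tested genes correlated at a median of 0.281, above 0.1 in 15 of 18 pairs. The consensus correlation used for the block of steers was 0.182.

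Members and lists were chosen with earlier results of these data known. The genes named were the members with symbols, the 10 with the smallest and 4 with the largest p for steers, the 8 with the smallest p for breed, the 5 highest and 5 lowest in level, joined groups, and the genes nearest the limits, with ranks over all members since few had symbols, and not all of these are described. The genes with an empty interval, correlates of MIF, and the other genes called for breed or frequency were named after their values were seen. Names for 328 genes came from the study's supplementary lists. Gene order was read by symbol from RefSeq (ARS-UCD2.0), and no coordinates or sequences were used here, since that build is not the one counted on. The libraries in doubt were chosen after seeing the data. They are those whose closest library at r of 0.65 or more has another number, or whose own-number correlation was under 0.4.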

Additional observations from a re-analysis of the deposited data

Results flagged for a closer look

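In 4 members 1 of the 6 CH ZG libraries stood apart from the others by Dixon's criterion, which takes the gap to the nearest library as a share of the whole range (critical value 0.625 for 6 libraries). ENSBTAG00000047547 was at 11.9 CPM in steer 1816 and at 0.12 CPM or less in the other 5 (0.933). GIMAP8 was at 174 CPM in steer 437 and at 13.2 to 26.0 CPM in the others (0.740). GIMAP4 was at 9.04 CPM in steer 307, against 63.6 to 183 CPM (0.644), and LOC768255 at 2.05 CPM in the same steer, against 48.5 to 183 CPM (0.692). In a gene with 2 separate classes a lone library of one class gives such a value by construction. The criterion marks about 1 in 20 groups by chance, and 47 genes were examined in this group.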

How the results depend on the processing

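The number of members fell to 76 with an SD limit of 1.2 and to 49 with a kurtosis limit of 2.5. DESeq2 gave 8 members for breed in H1, 2 in ZG and 10 in H2, against 3.39%, 0.0734% and 0.889% of all genes. It gave 21 for diet in CH and 14 for RFI, against 60.0% of all genes and 0.325% of all results. Without the 1797 library the breed count in H1 was 3, against 2.18%. Without the libraries in doubt, an alternative chosen after seeing the data, the breed count in ZG was 1 and the diet count in HF 11. The shares of all genes were then 0.0146% and 50.1%. With a boundary at 1 CPM the frequency count was 0, against 0.0219%, and with a boundary at the widest interval 3, against 0.0948%. The steer number as a replicate block gave 11 members for breed and 0 for its change with phase, against 2.84% and 0.0% of all genes. It gave 18 for diet in CH and 14 in HF, against 63.8% and 59.5%. For H2 against H1 the block gave 14 members in CH and 12 in HF, against 64.3% and 53.4%. Leaving out the libraries in doubt gave 13 and 12, against 57.6% and 36.1%, and both were added after seeing the data. Leaving out 1 library in turn gave 26 to 50 members for diet in HF, against 56.5% to 61.3% of all genes, which was also added after seeing the data. For RFI it gave 0 to 1, against 0.00261% to 0.00391% of all results. The cause of these changes was not tested. All other alternatives gave counts within 1.5 times those reported. CH ZG, with 3 libraries for each RFI group, limits every comparison it enters.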
